A study of Mus musculus with 6 samples.

Results

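The genes described here are 10 transcripts that NF-kB switches on or that restrain it: Tnf, Nfkbia, Nfkbiz, Tnfaip3, Bcl2a1a, Bcl2a1b, Bcl2a1d, Cd83, Gadd45b and Icam1. They were taken by symbol, and all 10 were found among the 31053 genes of the matrix. Counts of unique molecular identifiers (UMIs, each standing for 1 captured RNA molecule) came from single CD45+ cells sorted from the tumor-bearing right brain hemisphere of female SCID mice, which lack T and B lymphocytes. The mice carried intracranial human glioma cells of the established line U87. In 3 mice the U87 cells expressed IL-33 and tissue was taken at 3 weeks, and in 3 mice the cells carried the empty vector pcDNA and tissue was taken at 6 weeks, so the IL-33 state and the time cannot be told apart. The mice were 8 weeks old at implantation by the growth protocol, whereas their age label reads 6-8 weeks.

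The matrix joined 6 libraries, which barcode endings number 1 to 6. Groups were taken only from the sample labels, which tie no ending to a mouse, so the libraries were assigned to no group here, IL-33 and pcDNA tumors were not compared, and no p-value is given. Values are of pooled cells, with the value or range of the libraries beside the levels by gate and the ratios of the 10 genes between classes, and the finer divisions of cells are given for the pool only. The libraries held 9745192 to 24393841 UMIs and medians of 1536 to 3503 UMIs per barcode, and 36.4% of the 40411 barcodes shared their sequence with a barcode of another library. What this sharing means for the agreement of libraries was not tested. Levels are UMIs per 1000000 (CPM), which in these 3′-end counts need no correction for transcript length. Intervals in parentheses are exact 95% intervals for counting error.

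NF-kB is a family of paired transcription factors that waits in the cytoplasm, held by inhibitors of the IκB family. Receptors for TNF, for interleukin 1 and IL-33, and for microbial products start a kinase cascade that destroys the inhibitor, after which the factor enters the nucleus. Its early targets include its own brakes, so the signal normally comes as a pulse, and they also include cytokines, chemokines, adhesion molecules and survival factors.

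Among the brakes, Nfkbia encodes IκBα, which pulls NF-kB back out of the nucleus, and Tnfaip3 encodes A20, which edits ubiquitin chains upstream of the kinases. Nfkbiz encodes the nuclear IκBζ, which restrains some NF-kB targets and helps to activate others. Tnf encodes the cytokine TNF, Icam1 an adhesion molecule for leukocytes, and Cd83 a surface protein of activated antigen-presenting cells. The Bcl2a1 genes encode close relatives of BCL2 that oppose cell death, and Gadd45b encodes a stress protein that restrains JNK signalling.

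Promoter windows show where letters like an NF-kB site occur upstream of these genes, and how alike the 3 Bcl2a1 genes are. RefSeq promoters on GRCm38.p6 were listed for 8 of the 10 genes. Windows reached 250 bases before the RefSeq start and were trimmed to bases that lie outside every annotated transcript of the gene. The κB consensus and GGNNNTTCC, patterns that overlap each other, were searched on both strands with overlaps allowed. Capitals mark every matched base. The κB consensus was found in 3.90% and GGNNNTTCC in 15.7% of 32851 promoters in windows of 250 bases.

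By the GENCODE annotation of GRCm38, the feedback genes are Nfkbia at chr12:55489410-55492647 (minus strand), Nfkbiz at chr16:55811375-55838899 (minus strand) and Tnfaip3 at chr10:19000910-19015657 (minus strand). Tnf is at chr17:35199381-35202007 (minus strand), Cd83 at chr13:43784775-43803132 (plus strand), Gadd45b at chr10:80930073-80932204 (plus strand) and Icam1 at chr9:21015985-21028817 (plus strand). Bcl2a1a at chr9:88956900-88962419, Bcl2a1b at chr9:89199209-89207827 (both plus strand) and Bcl2a1d at chr9:88723285-88731914 (minus strand) neighbour each other. The antisense gene Gm47079 overlaps Icam1 and had 22 UMIs against 22655 for Icam1, and Gm10634 overlaps Bcl2a1d in antisense and had 25 against 8124.

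The Tnf window, chr17:35202008-35202257 on the minus strand, held 1 match to GGNNNTTCC, 212 bases before the start. The Nfkbia window, chr12:55492648-55492897 on the minus strand, held matches at 3 positions, of which the one nearest the start also matched the κB consensus. The Icam1 window, chr9:21015690-21015939 on the plus strand, held GGNNNTTCC at 2 positions. The Gadd45b window, chr10:80929841-80930072 on the plus strand, held neither pattern.
Tnf: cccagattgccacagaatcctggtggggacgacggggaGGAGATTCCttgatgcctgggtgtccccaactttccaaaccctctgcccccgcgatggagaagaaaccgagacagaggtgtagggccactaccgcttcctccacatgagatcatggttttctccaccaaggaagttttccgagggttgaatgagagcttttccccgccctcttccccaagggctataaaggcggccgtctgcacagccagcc
Nfkbia: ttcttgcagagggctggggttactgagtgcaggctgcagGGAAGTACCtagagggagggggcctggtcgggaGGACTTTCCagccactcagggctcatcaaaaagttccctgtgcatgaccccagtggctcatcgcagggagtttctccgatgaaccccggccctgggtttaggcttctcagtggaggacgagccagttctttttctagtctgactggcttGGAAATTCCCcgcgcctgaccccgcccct
Icam1: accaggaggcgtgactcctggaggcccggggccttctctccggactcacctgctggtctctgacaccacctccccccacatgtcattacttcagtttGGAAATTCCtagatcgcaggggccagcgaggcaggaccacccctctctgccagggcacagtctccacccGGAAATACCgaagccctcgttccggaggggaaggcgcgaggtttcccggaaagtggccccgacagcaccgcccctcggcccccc
Gadd45b: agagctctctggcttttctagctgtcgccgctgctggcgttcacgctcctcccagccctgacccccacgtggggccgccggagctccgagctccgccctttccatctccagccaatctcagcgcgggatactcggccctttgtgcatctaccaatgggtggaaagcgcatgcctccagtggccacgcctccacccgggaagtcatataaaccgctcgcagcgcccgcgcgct

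The Bcl2a1 windows were chr9:88956670-88956899 (plus strand) for Bcl2a1a, chr9:89199023-89199208 (plus strand) for Bcl2a1b and chr9:88731915-88732100 (minus strand) for Bcl2a1d. They held neither pattern and were nearly the same sequence, with 185 of 186 aligned bases identical between Bcl2a1a and Bcl2a1b and 176 of 180 between Bcl2a1a and Bcl2a1d.
Bcl2a1a: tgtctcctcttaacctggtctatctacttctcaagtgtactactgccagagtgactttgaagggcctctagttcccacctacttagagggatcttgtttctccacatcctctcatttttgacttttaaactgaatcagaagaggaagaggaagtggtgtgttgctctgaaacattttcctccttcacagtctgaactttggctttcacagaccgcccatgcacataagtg
Bcl2a1b: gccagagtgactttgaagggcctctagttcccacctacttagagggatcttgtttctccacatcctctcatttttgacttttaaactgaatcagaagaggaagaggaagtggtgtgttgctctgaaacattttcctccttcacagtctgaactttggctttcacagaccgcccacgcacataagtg
Bcl2a1d: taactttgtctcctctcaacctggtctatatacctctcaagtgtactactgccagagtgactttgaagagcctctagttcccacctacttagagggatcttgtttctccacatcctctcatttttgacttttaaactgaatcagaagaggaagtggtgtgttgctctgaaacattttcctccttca

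The transcripts of these 3 genes were as close, at 98.2 to 99.1% identity. Of all stretches as long as the 98-base read, 55.8% in Bcl2a1a, 67.9% in Bcl2a1b and 43.9% in Bcl2a1d occurred in no other gene of the family, so the split of UMIs among the 3 genes is uncertain. A match in a window is a description of letters and not a binding site, and the absence of one says only that these letters were not in the window. The 2 windows listed for Tnfaip3 held matches too, with the κB consensus 2 times and GGNNNTTCC 3 times in the first and GGNNNTTCC 1 time in the second, but all but 3 of their bases lie inside an annotated transcript, so they are not printed.

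Cells were grouped by fixed marker genes, and the number of markers each gate required was set after marker counts had been seen, without use of the 10 genes. Of 38751 barcodes that passed the quality limits, 33478 (86.4%) carried at least 4 of the 6 microglial markers Tmem119, Gpr34, Olfml3, P2ry12, Cx3cr1 and Selplg and are called microglia-like. Smaller gates held 190 choroid plexus-like, 186 classical monocyte-like, 116 NK-like and 44 granulocyte-like cells. A further 4728 barcodes met no gate. Microglia-like cells had a median of 2638.5 UMIs, against 4628.5 in monocyte-like, 1713 in NK-like and 1014.5 in choroid plexus-like cells.

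In microglia-like cells the brakes Nfkbia and Nfkbiz were the most abundant of the 10 transcripts, followed by Tnf and Icam1. Nfkbia stood at 1932 CPM, with libraries between 1706 and 2208 and a median of 1929. Nfkbiz stood at 939 CPM, with a lowest library of 709, a median of 914 and a highest of 1177. No library of Nfkbiz reached the lowest of Nfkbia.

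Tnf stood at 292 CPM, and its libraries ran from 248 through a median of 276 to 351. Icam1 stood at 217 CPM and was the most even of the 10 across libraries relative to its level, from 199 through 218 to 227. The lowest library of Tnf lay above the highest of Icam1.

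The next 3 genes could not be placed in order, since their library ranges overlapped. Cd83 stood at 124 CPM (libraries 105 to 146), Bcl2a1b at 113 CPM (82.2 to 148) and Tnfaip3 at 107 CPM (87.5 to 138). Bcl2a1d followed at 76.1 CPM (67.1 to 80.5). The least abundant were Gadd45b at 25.5 CPM (23.1 to 29.97) and Bcl2a1a at 12.0 CPM (8.62 to 14.8).

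The more abundant of these transcripts were found in a larger share of microglia-like cells than of choroid plexus-like cells, an epithelial type used here as a measure of free RNA. At least 1 UMI of Nfkbia was found in 84.7% of microglia-like and 14.2% of choroid plexus-like cells. The corresponding shares were 30.6% and 2.11% for Tnf, 70.0% and 2.11% for Nfkbiz, and 37.9% and 3.68% for Icam1. With each cell thinned to 500 UMIs the share for Tnf was 9.53% in microglia-like cells against 0 of 190 choroid plexus-like cells, which allows up to 1.92%. Bcl2a1b was in 21.2% of microglia-like cells and likewise in 0 of 190 choroid plexus-like cells.

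**Figure D1:**
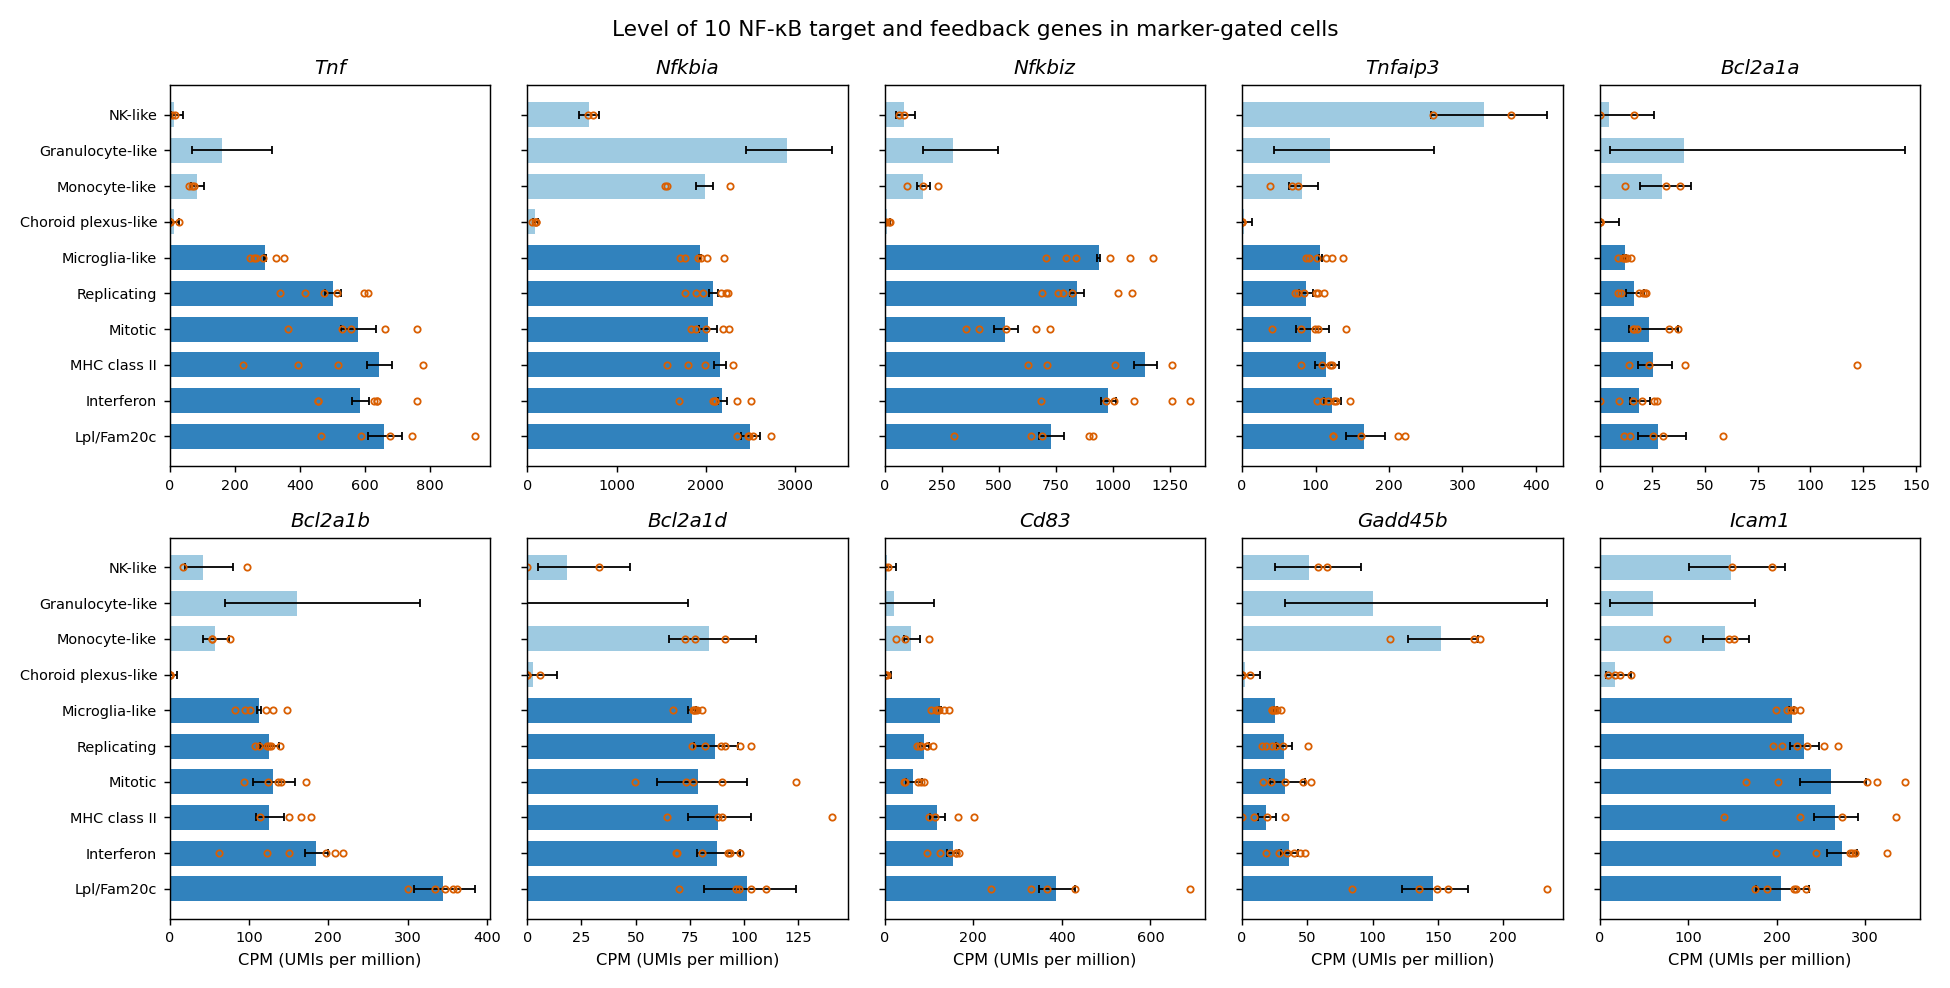
Level of each of the 10 genes in CPM (linear axis from 0, 1 panel a gene) in 10 marker-gated groups of cells, dark for microglia-like cells and their state gates, where bars are pooled cells, whiskers exact 95% counting intervals and circles single libraries with at least 20 cells. Gadd45b is highest in monocyte-like (152 CPM) and Lpl/Fam20c cells (146 CPM), Tnfaip3 in NK-like cells (330 CPM), and Nfkbiz is at 169 CPM in monocyte-like against 939 CPM in microglia-like cells.

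Monocyte-like cells, gated on markers that include Ly6c2 and Ccr2, shared the level of Nfkbia with microglia-like cells and differed in the balance of the rest. Gadd45b was higher and Nfkbiz, Tnf and Cd83 were lower. Counting ratios of at least 2, 2 of the 10 genes were higher and 3 lower, where 21.2% of the 5511 genes compared were higher and 16.3% lower. The count of higher genes thus sat near that background, and whether the count of lower genes exceeded it was not tested.

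Gadd45b reached 152 CPM in monocyte-like cells against 25.5 CPM in microglia-like cells, a ratio of 5.96 (4.95-7.12). In libraries 4, 5 and 6, which held 72, 30 and 69 of the monocyte-like cells, it stood at 177, 183 and 113 CPM, all above the highest microglial library, and within each of these libraries its ratio was 4.90 to 7.52. The microglia-like cells of the pooled ratio came from all 6 libraries. Bcl2a1a had a ratio of 2.46 (1.58-3.65) from 25 UMIs, but the ratio was 0.986 in 1 of the 3 libraries, and without library 1, 4 or 5 it fell under the minimum mean of 20 CPM, which left 1 higher gene.

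Nfkbiz was at 169 CPM in monocyte-like cells, a ratio of 0.180 (0.151-0.212), with libraries at 98.2, 168 and 236 CPM. Tnf was at 82.6 CPM, a ratio of 0.283 (0.220-0.357), and its 3 libraries were at 59.5, 68.5 and 76.1 CPM. Neither gene reached its lowest microglial library in any of the 3. Cd83 had a ratio of 0.485 (0.361-0.639), with library ratios of 0.206 to 0.751. Without library 4 the count of lower genes was 2, and without library 1, 2 or 3 it was 4.

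Nfkbia did not separate these cells, at 1988 CPM in monocyte-like and 1932 CPM in microglia-like cells, with library ratios of 0.875 to 1.17. The summed level of 10 immediate early genes, a list headed by Fos, was 9566 CPM in monocyte-like and 52298 CPM in microglia-like cells. The monocyte-like cells also carried the MHC class II list at 6157 against 213 CPM in microglia-like cells. Dendritic markers stood at 827 against 4.86 CPM and border macrophage markers at 462 against 4.45 CPM. The part of these lists and of the immediate early genes in the differences was not tested.

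Among the values of NK-like cells those of Tnfaip3 and Gadd45b stood above microglia-like cells. The brake Tnfaip3 stood at 330 CPM from 71 UMIs, a ratio of 3.09 (2.41-3.90) to microglia-like cells, and at 259 and 366 CPM in libraries 4 and 6, the 2 with at least 20 such cells. Both values exceeded the highest microglial library of 138 CPM, though the pooled ratio ranked 818 among the 5789 genes compared. Gadd45b was at 51.1 CPM from 11 UMIs, and its ratio of 1.999 (0.997-3.58) fell just short of 2, while those 2 libraries stood at 64.9 and 58.2 CPM, above the highest microglial library of 29.97 CPM. Without library 1, 2, 3 or 5 it passed 2, and the count of higher genes given next became 2.

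The other brakes were low in NK-like cells, with Nfkbia at 687 CPM (ratio 0.356, 0.301-0.418) and Nfkbiz at 83.5 CPM (ratio 0.0890, 0.0527-0.141). Tnf gave 3 UMIs in 116 cells, a ratio of 0.0476 (0.00982-0.139), and Cd83 gave 1. Of the 9 genes with enough counts to compare, 1 was higher and 6 were lower, where 27.7% of 5789 genes were higher and 19.1% lower. The count of higher genes thus did not exceed that background. The immediate early sum was 8284 CPM in NK-like cells.

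Granulocyte-like cells were too few for any library to be read alone. Nfkbia was at 2905 CPM (2452-3418) there, and Tnf at 160 CPM (69.2-316). Bcl2a1d gave 0 UMIs in these 44 cells, which by the exact interval allows up to 73.9 CPM, close to its microglial level of 76.1 CPM.

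Within microglia-like cells, a small gate of 272 cells carried at least 3 of the genes Lpl, Fam20c, Mmp12, Fabp5, Plk2 and Itgax. Cd83, Bcl2a1b, Gadd45b and Tnf were all higher there than in the 31094 microglia-like cells that met no state gate, while Icam1 and Nfkbiz were not. Of 9 genes compared, 4 were higher by 2 times or more and 0 were lower, where 3.32% of 5365 genes were higher and 2.16% lower. These ratios are given for the 5 libraries with at least 20 cells of the gate and for the pool. In the paper, Cd83, Bcl2a1b and Gadd45b are top genes of a microglial cluster that also lists Lpl and Fam20c. The count of higher genes is therefore no independent support.

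Gadd45b had the highest ratio of the 9, at 146 CPM in the gate against 23.7 CPM in cells with no state gate (ratio 6.18, 5.15-7.36). Its libraries in the gate stood at 84.1, 135, 149, 158 and 234 CPM. Bcl2a1b was at 345 CPM against 106 CPM (ratio 3.24, 2.89-3.63), and its libraries lay close together at 300.4, 335, 347, 357 and 362 CPM.

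Cd83 was at 387 CPM against 121 CPM (ratio 3.19, 2.86-3.54), with libraries at 240.3, 330.2, 367, 429 and 689 CPM. Tnf was at 660.2 CPM against 262 CPM (ratio 2.52, 2.33-2.74), with libraries at 467, 587, 679, 747 and 940 CPM. All these library values lay above the highest library of the cells with no state gate, which was 144 CPM for Cd83 and 304 CPM for Tnf. The share of all genes that lay apart by library in this way was not computed for this gate.

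The brakes differed less. Tnfaip3 had a ratio of 1.57 (1.33-1.85), Nfkbia 1.31 (1.26-1.37) and Nfkbiz 0.776 (0.719-0.837), the last with 1 of 5 libraries above 1. Icam1 was at 205 CPM against 214 CPM. The microglial marker sum was 7001 CPM in this gate and 14102 CPM in cells with no state gate, and the immediate early sum was 35920 CPM against 53413 CPM, and the part of neither was tested.

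Tnf was also higher in the other state gates. It stood at 502 CPM in replicating cells (libraries 339 to 609), 579 CPM in mitotic cells (364 to 762) and 587 CPM in cells of the interferon-response gate (455 to 763). Each of these library ranges lay above the highest library of the no-state cells, 304 CPM. In cells of the MHC class II gate it was at 644 CPM, but libraries spread from 225 to 778 CPM and 266 of the 407 cells came from library 1. The share of all genes whose library values lay apart was not computed for these gates. A cell could meet more than 1 state gate, so these values are not of separate sets of cells. The replicating marker list stood at 2167 CPM in mitotic and 1591 CPM in replicating cells. Median UMIs were 4086 in replicating, 4115.5 in mitotic, 3804 in interferon-response and 3846 in MHC class II cells. No-state cells had a median of 2556.5, and the part of this depth was not tested.

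Cd83 did not follow Tnf into the cycling cells. It was at 64.2 CPM in mitotic cells, with libraries of 44.8 to 88.4 CPM, all below the lowest no-state library of 103 CPM. In replicating cells it was at 89.8 CPM, but its libraries of 73.6 to 109 CPM overlapped those of no-state cells. Nfkbiz was at 529 CPM in mitotic cells against 940.2 CPM in no-state cells, with libraries of 355 to 724 and 714 to 1172 CPM.

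The next comparison asked which of the 10 genes accompanied Ccl3, a chemokine and NF-kB target, in single microglia-like cells. Each of the 27691 cells with at least 1000 UMIs was thinned to 1000, so that depth was equal. Ccl3-high cells, with at least 5 Ccl3 UMIs after thinning, numbered 4565 (16.5%, libraries 10.8 to 19.8%), and 14587 cells (52.7%) had none. Median UMIs before thinning were 2981 and 2965.

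Tnf, Cd83, Bcl2a1b and Gadd45b were more than 2 times higher in Ccl3-high than in Ccl3-free cells, and the library ranges of the 2 classes did not overlap for any of them. Of the 9 genes compared, 4 were higher and 0 lower by 2 times or more, where 0.996% of 5422 genes were higher and 0.0553% lower. For 4 of the 9, every library of the Ccl3-high class exceeded every library of the Ccl3-free class, which held for 1.9% of all genes. The median ratio was 1.37 over the 9 genes and 0.974 over all genes. In the paper, Cd83, Bcl2a1b and Gadd45b are top genes of a microglial cluster that also lists Ccl3. Another microglial cluster that lists Ccl3 has none of these genes among its top genes. Genes and comparisons were chosen with earlier results known, so these counts are no independent support.

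Tnf was at 201 CPM in Ccl3-free cells, with libraries from 174 through a median of 193 to 257. In Ccl3-high cells it was at 439 CPM, with libraries from 358 through 465 to 554, a ratio of 2.18 (2.06-2.31). The single-library ratios ran from 1.87 to 2.97, and the share of cells with a Tnf UMI was 14.9% and 27.6%.

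Cd83 was at 89.9 CPM in Ccl3-free cells (78.8 through 87.3 to 112) and at 218 CPM in Ccl3-high cells (192 through 226 to 231), a ratio of 2.42 (2.23-2.63). Bcl2a1b was at 75.5 CPM (51.2 through 74.0 to 103) and 179 CPM (139 through 182 to 204), a ratio of 2.37 (2.16-2.59). For both genes the lowest Ccl3-high library stood above the highest Ccl3-free library.

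Gadd45b had the highest ratio of the 9 and the fewest counts, at 17.4 CPM (11.9 through 18.0 to 20.3) in Ccl3-free and 45.6 CPM (38.0 through 45.3 to 80.2) in Ccl3-high cells. Its ratio was 2.62 (2.17-3.16), and single libraries ran from 2.04 to 4.35. It was detected in 3.79% of Ccl3-high cells.

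The brakes differed less between the classes. From the highest ratio down, Tnfaip3 ranked 212, Nfkbia 589 and Nfkbiz 2302 among the 5422 genes compared. Tnfaip3 had a ratio of 1.37 (1.24-1.503) and Nfkbia of 1.19 (1.16-1.21), each above 1 in 6 of 6 libraries, though the library levels of the classes overlapped. Nfkbiz was at 941 CPM in both classes, with a ratio of 0.999 (0.965-1.03).

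Icam1 likewise stood at 215 and 217 CPM, with a ratio of 1.01 (0.939-1.08). Bcl2a1d had a ratio of 1.09 (0.965-1.23), apart from its close relative Bcl2a1b, with which it has stretches of read length in common. Bcl2a1a was under the 20 CPM minimum in both classes and was left out of the count.

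Across the range of Ccl3, the levels of Tnf, Cd83 and Gadd45b were higher in each successive bin. Tnf was at 201, 254, 269, 306, 379, 527 and 907 CPM in cells with 0, 1, 2, 3 to 4, 5 to 9, 10 to 19 and 20 or more Ccl3 UMIs. Cd83 went from 89.9 CPM at 0 through 169 CPM at 3 to 4 to 448 CPM (353-560) at 20 or more, a bin of 172 cells. Gadd45b went from 17.4 to 145 CPM (94.1-215) between the same end bins. Bcl2a1b went from 75.5 to 279 CPM (206-370), but was level at 166 and 165 CPM in the bins of 3 to 4 and 5 to 9 UMIs.

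In the pooled cells Nfkbiz took another course. It was at 941 CPM in cells with no Ccl3, lower at 813 CPM (775-852) with 2 UMIs, and higher again at 1025 CPM (969-1083) with 10 to 19 and 1285 CPM (1121-1466) with 20 or more. Icam1 stayed between 206 and 250 CPM over all bins.

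**Figure D2:**
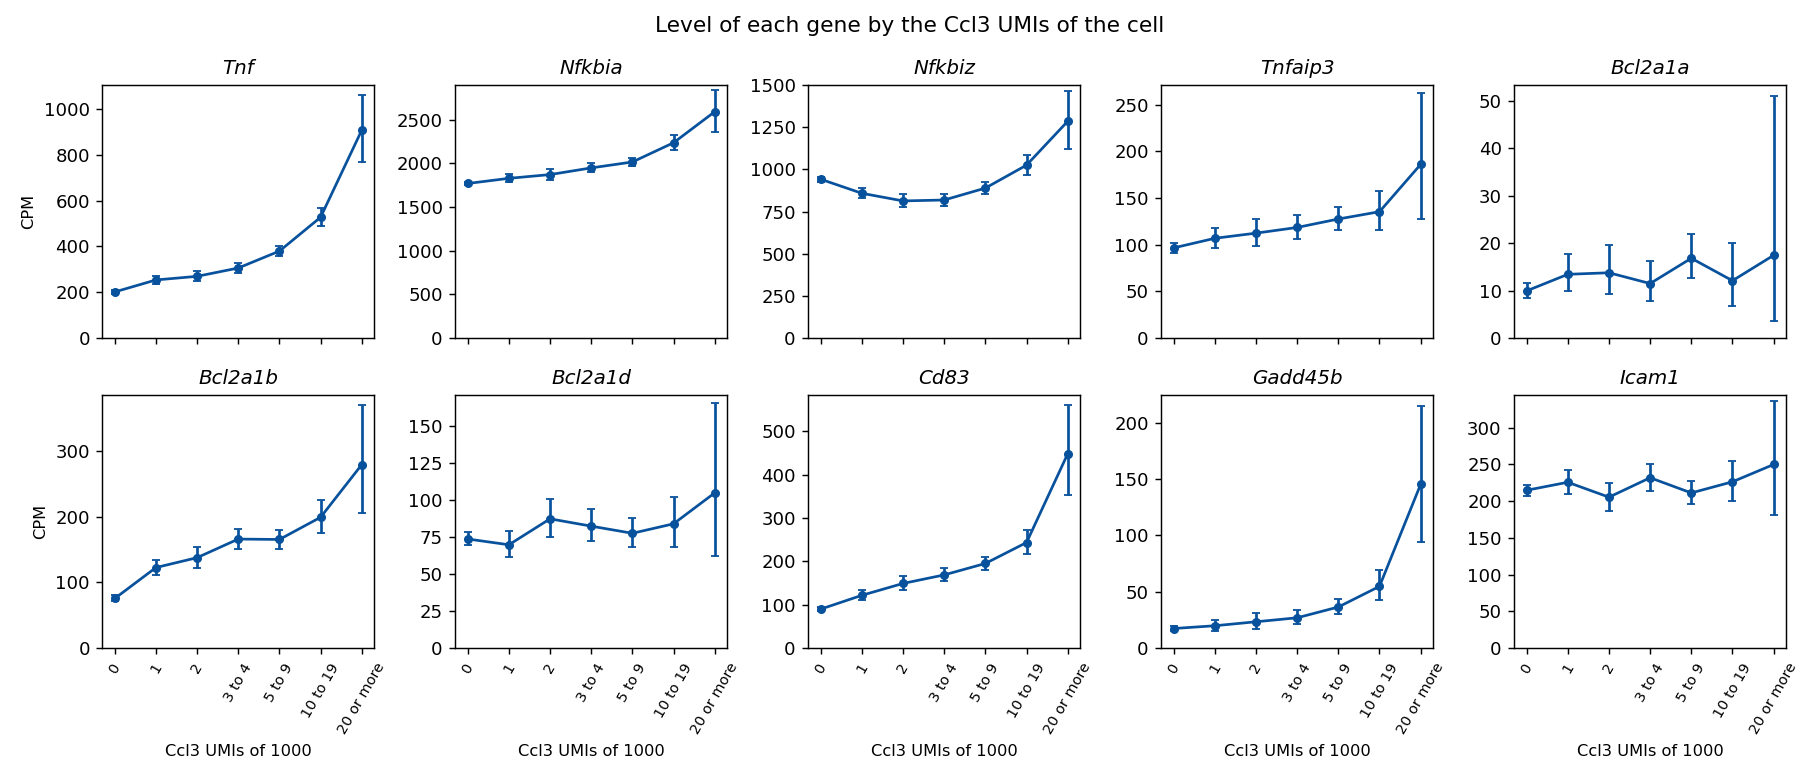
Level of each gene in CPM (linear axis from 0) in microglia-like cells binned by their Ccl3 UMIs after thinning to 1000, where points are pooled cells and whiskers exact 95% counting intervals. Tnf is at 201 CPM with no Ccl3 and 907 CPM with 20 or more UMIs, Nfkbiz dips to 813 CPM and then reaches 1285 CPM, and Icam1 stays between 206 and 250 CPM.

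Other features moved with the Ccl3 classes, and their part in the result was not tested. The microglial marker sum was 10808 CPM in Ccl3-high and 15507 CPM in Ccl3-free cells, with library ranges of 9540 to 12561 and 13463 to 16781. The interferon list stood at 303 against 116 CPM and the Lpl list at 314 against 92.7 CPM, and the immediate early sum was lower, at 47185 against 56541 CPM. Of Ccl3-high cells 87.0% met no state gate, and in those cells alone the ratio was 1.99 for Tnf.

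The wider pathway was read from 61 listed genes, of which 42 had enough counts. Of these 7 were higher in Ccl3-high cells and 0 lower, where 0.996% of all genes were higher and 0.0553% lower. The list's median ratio was 1.07. The 7 were the chemokines Ccl4 (ratio 5.19), Cxcl2 (4.92), Cxcl10 (3.39), Ccl2 (2.43) and Cxcl16 (2.06), the growth factor Csf1 (4.40) and the receptor Tlr2 (2.20). By role these were 6 of 14 other targets and 1 of 5 receptors, with 0 of 5 NF-kB subunits, 0 of 6 other inhibitors and 0 of 12 kinases and adaptors. Ratios of the 5 subunits lay between 0.792 and 1.10.

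The companion comparison used Il1b, another NF-kB target, which encodes interleukin 1β. After thinning, 2208 cells (7.97%) had at least 1 Il1b UMI and 25483 had none. Of the 9 genes compared, 0 were higher and 0 lower by 2 times or more, where 0.295% of 5422 genes were higher and 0.0184% lower. Tnf, as 1 of the 9, had no overlap of library ranges between the classes, which held for 0.461% of all genes.

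Tnf was at 249.6 CPM in Il1b-free cells (libraries 225 through 233 to 298) and 419 CPM in Il1b-positive cells (304 through 471 to 527), a ratio of 1.68 (1.57-1.80). Cd83 had a ratio of 1.67 (1.51-1.85), Bcl2a1b of 1.61 (1.44-1.79) and Tnfaip3 of 1.42 (1.26-1.59), each above 1 in 6 of 6 libraries. Their library levels overlapped between the classes.

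Icam1 had a ratio of 1.26 (1.15-1.37) with Il1b and was above 1 in 5 of 6 libraries. Nfkbia had a ratio of 1.21 (1.17-1.24) in 6 of 6 libraries. Nfkbiz was at 0.963 (0.919-1.01). Among the 42 pathway genes 2 were higher, Ccl2 (2.56) and Cxcl10 (2.11), and 0 were lower, where 0.295% of all genes were higher and 0.0184% lower.

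Other lists moved with the Il1b classes as well, and their part was not tested. The microglial marker sum was 10696 CPM in Il1b-positive and 14052 CPM in Il1b-free cells, with overlapping library ranges, and the immediate early sum was 46630 against 52803 CPM. The MHC class II list stood at 315 against 180 CPM, the interferon list at 252 against 170 CPM and the NK marker list at 54.3 against 22.3 CPM. Median UMIs before thinning were 3239 and 2922.

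Since the 2 marker transcripts were themselves linked, with a Ccl3 ratio of 1.53 (1.49-1.57) between the Il1b classes, cells were also set out by both. There were 13797 cells with neither, 790 with Il1b and no Ccl3, 4005 Ccl3-high with no Il1b and 560 with both. These 4 classes share libraries and one thinned depth, and the fewest cells of any library in a class were 20, among those with both.

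Tnf was at 195 CPM with neither, 306 CPM with Il1b alone, 419 CPM with Ccl3 alone and 584 CPM with both, none of whose counting intervals overlapped. Cd83 followed the same order at 86.5, 149, 204 and 312 CPM, and Bcl2a1b at 73.3, 115, 171 and 236 CPM. Relative to cells with neither, cells with both had ratios of 2.99 (2.66-3.36) for Tnf, 3.61 (3.07-4.24) for Cd83 and 3.22 (2.66-3.86) for Bcl2a1b. Gadd45b was at 16.8 CPM with neither and 27.8 CPM with Il1b alone. Its levels of 44.9 CPM (38.6-52.0) with Ccl3 alone and 50 CPM (33.2-72.3) with both could not be ordered within their counting error.

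Icam1 was higher in the classes with Il1b. It was at 211 CPM (204-219) with neither and 211 CPM (197-225) with Ccl3 alone. With Il1b alone it was at 278 CPM (243-318), and with both at 261 CPM (220-307). The counting intervals with Ccl3 alone and with both overlapped. Tnfaip3 was at 93.9 CPM with neither, 144 with Il1b alone, 127 with Ccl3 alone and 168 CPM with both, so that the values for each alone could not be ordered within their counting error. Nfkbiz ranged from 888 to 948 CPM over the 4 classes.

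**Figure D3:**
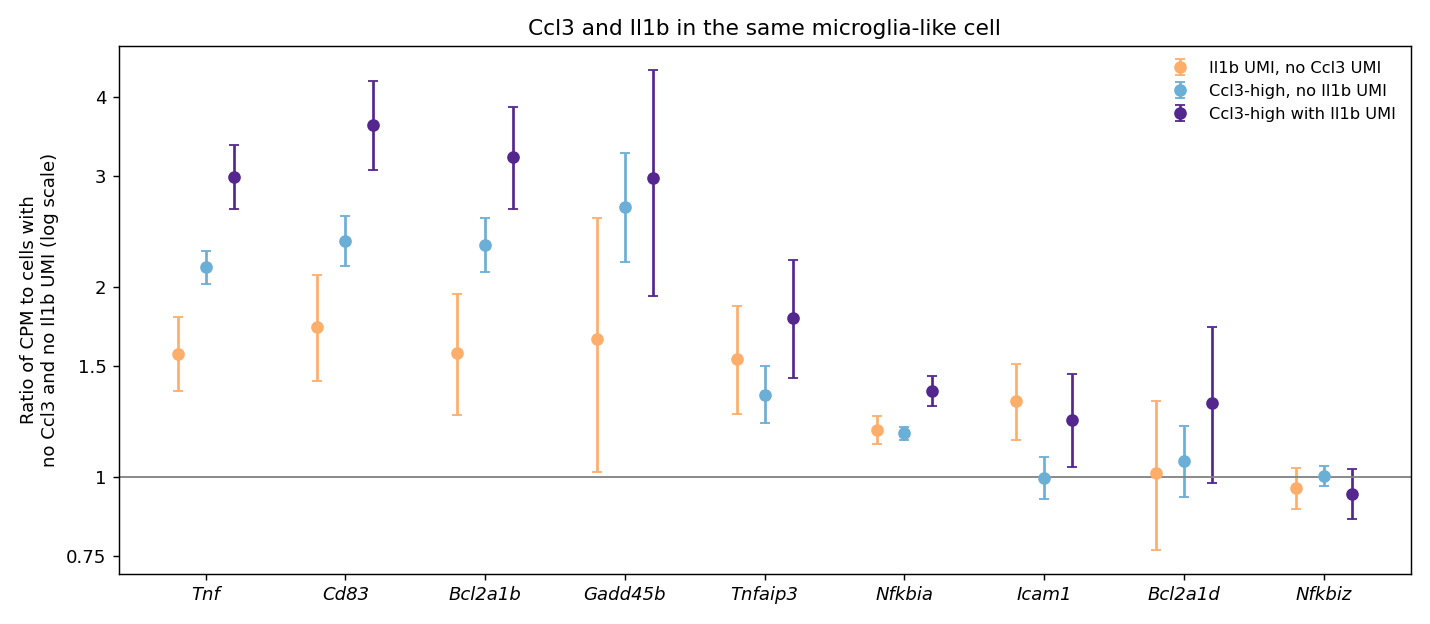
Ratio of CPM of 9 genes (log axis) to microglia-like cells with neither Ccl3 nor Il1b, in cells with Il1b only, Ccl3-high only, and both, where points are pooled cells and whiskers exact 95% counting intervals. Cells with both stand highest for Tnf (2.99), Cd83 (3.61) and Bcl2a1b (3.22), and Icam1 stands at 1.32 with Il1b only and 0.997 with Ccl3 only.

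As correlations these links were weak. Over the 27691 thinned cells, Pearson's r on the log2(count + 1) scale, averaged over the 6 within-library values, was 0.14 for Tnf with Ccl3 (libraries 0.11 to 0.20) and 0.12 for both Cd83 and Bcl2a1b with Ccl3. It was 0.08 for Tnf with Il1b and 0.01 for Nfkbiz with Ccl3. Cells of a library share its preparation and all have the same depth, and values this low in sparse counts are no finding in themselves.

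The same held among the 10 genes, where a cell had UMIs of a median of 2 of them at 1000 UMIs. At least 3 of the 10 were seen in 42.6% of Ccl3-high and 28.1% of Ccl3-free cells. Among 2690 genes of at least 50 CPM, those with the highest r to the sum of the 10 were Ccl12 (0.16), Ccl4 (0.14), Ccrl2 (0.14), Junb (0.14), Ccl2 (0.12), Id2 (0.12), Marcksl1 (0.12), Atf3 (0.11), Ier3 (0.10) and Il1a (0.10). The 10 genes themselves, Ccl3 and Il1b were left out of this ranking, so it does not place Ccl3 or Il1b. Nfkbia and Nfkbiz, the most abundant of the 10, weigh most in the sum, and Junb and Atf3 belong to the immediate early list.

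Because immediate early genes were abundant in microglia-like cells, the 25% of cells in each library with the highest and with the lowest sum of their UMIs were also compared, a comparison added after the data had been seen. Nfkbiz had the highest ratio of the 10 genes. It was at 1125 CPM in the highest 25% and 621 CPM in the lowest 25%, a ratio of 1.81 (1.75-1.88), and was higher in 6 of 6 libraries. The library ranges were 910.3 to 1342 and 465 to 917 CPM and overlapped only between 910.3 and 917 CPM.

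The genes that accompanied Ccl3 went the other way. Cd83 was at 101 CPM in the highest against 182 CPM in the lowest 25% (ratio 0.556, 0.506-0.609) and Bcl2a1b at 87.8 against 157 CPM (ratio 0.561, 0.508-0.619). Gadd45b had a ratio of 0.710 (0.576-0.874), and for these 3 genes the ratio was below 1 in 6 of 6 libraries. Tnf had a ratio of 0.715 (0.669-0.764), with 1 library above 1. Other lists differed between these cells too. The Lpl list stood at 87.3 CPM in the highest and 318 CPM in the lowest 25%, and the mitotic list at 9.68 and 75.8 CPM. The interferon list stood at 113 and 287 CPM and the MHC class II list at 133 and 278 CPM. The microglial marker sum was 14828 and 11682 CPM, and the part of these lists was not tested.

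None of the 9 ratios reached the limits used for calls. Thus 0 of 9 genes were higher and 0 of 9 lower, where 0.406% of 5413 genes were higher and 1.48% lower. Of the 42 pathway genes 0 were higher and 5 lower, namely Tlr2, Cxcl2, Cxcl10, Cxcl16 and Csf1. Pathway ratios under the limit reached 1.83 among the other targets and 1.56 among the NF-kB subunits. The median ratio of the pathway genes was 1.03, against 0.970 over all genes. Nfkbia (1.14), Tnfaip3 (1.15) and Icam1 (1.11) were slightly above 1, with 5, 5 and 4 of 6 libraries above 1. Ccl3 itself had a ratio of 0.531 (0.519-0.544) in this comparison and Il1b of 0.483 (0.436-0.535). Within the lowest 25% the Ccl3 ratio of Bcl2a1b was 1.90, and within the highest 25% that of Tnf was 1.82 and of Gadd45b 1.77, where only 2 of the 9 genes, Cd83 and Bcl2a1b, were above 2.

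**Figure D4:**
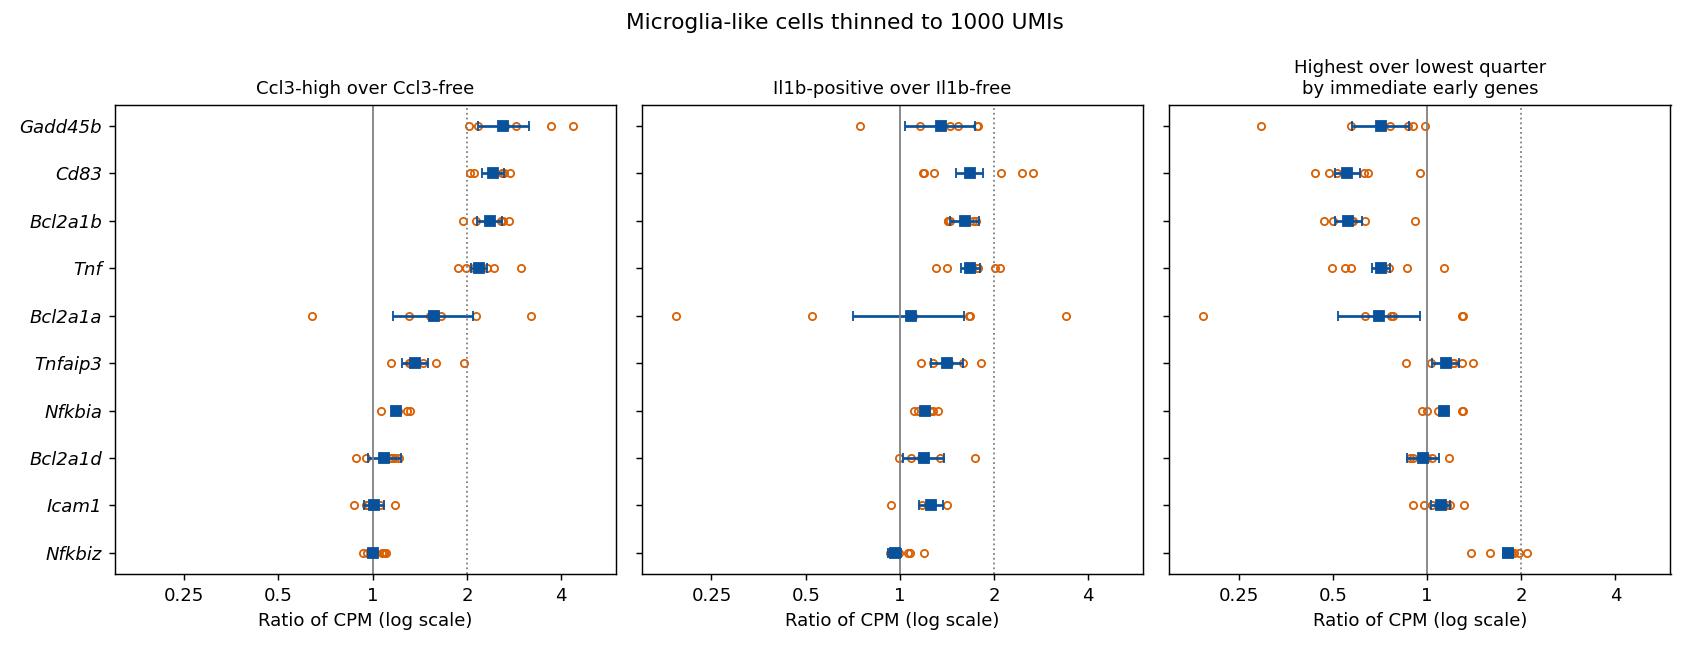
Ratio of CPM of each gene (log axis) between classes of microglia-like cells thinned to 1000 UMIs, by Ccl3, by Il1b and by the sum of immediate early genes in 3 panels; squares are pooled cells with exact 95% counting intervals, circles single libraries, and the lines mark ratios of 1 and 2. Gadd45b, Cd83, Bcl2a1b and Tnf lie above 2 by Ccl3 (2.18 to 2.62) and below 1 by immediate early genes (0.556 to 0.715), while Nfkbiz lies at 0.999 and 1.81.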

How the data were processed

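CD45+ cells were isolated on a percoll gradient, sorted, and sequenced on the 10x Chromium 3′ v2 platform with a 98-base read of the transcript. The authors deposited 1 matrix of raw UMI counts for 6 aggregated libraries, made with Cell Ranger 3.1 and STAR on mm10, and analysed it in Seurat 3.1.5. The annotation release and whether aggregation equalized depth are not given in the sources used here, and the 3 sequencing batches are not tied to libraries. The matrix held 105560763 UMIs with a largest count of 4389. No column of per-sample values was left unused (0).

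After the study's limits, a barcode needed more than 200 genes, no more than 2500, and a mitochondrial share below 5%. No doublet caller was run beyond this upper limit. Gates required 3 markers with a UMI (4 for microglia-like cells, with at most 1 marker of another type, and at most 2 microglial markers in other gates). Gates of 7 border macrophage-like and 2 lymphocyte-like cells were not described, and the dendritic gate held 0. Levels were UMIs per 1000000. Cells were thinned to 1000 UMIs (500 for shares) with a fixed seed, and "higher" or "lower" meant a ratio of at least 2 or at most 0.5 in genes of at least 20 CPM. Library values needed 20 cells, and the limit for a count of 0 is the upper bound of its exact interval. The share of all genes whose library values lay apart was computed for the Ccl3 and Il1b classes only. Intervals are exact Poisson, binomial or conditional binomial at 95% and cover counting error only. The calculation of ratios and intervals was checked on simulated cells with 200 of 5384 genes changed. Of these 91.5% were recovered within 0.2 log2 units, and 95.5% of all intervals held the true value. The simulated cells were drawn independently from fixed profiles, with no libraries, no spread beyond counting and no choice of cells by a transcript. The check therefore covers the arithmetic and counting error only, and not the comparison of Ccl3 classes. Python 3.11.15, numpy 2.4.6, scipy 1.17.1, pandas 2.3.3, Biopython 1.88 and matplotlib 3.10.9 were used. Gene positions are from GENCODE and promoters from RefSeq, both on GRCm38.

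The 10 genes, the gene lists and the comparisons were chosen with earlier results of these data known. Genes named besides the 10 were Ccl3, Il1b, listed pathway genes that passed the ratio and the 10 genes most like the sum in single cells. Alternatives changed the quality limits, markers, thinning depth, class limits, minimum level and ratio, and left out each library. Comparisons by immediate early genes were added after seeing the data.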

Additional observations from a re-analysis of the deposited data

Results flagged for a closer look

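Among 30 sets of 6 library values examined, 1 had a value far from the others. The level of Bcl2a1d in microglia-like cells was 67.1 CPM in library 4, against 76.5 to 80.5 CPM in the other 5 and its gap to the nearest of them was 0.698 of the whole range, above Dixon's critical value. Chance flags about 1 in 20 such sets. The libraries come from both tumor groups and were not assigned to them here. The Bcl2a1d transcript has stretches of read length in common with its close relatives, so its level is uncertain.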

How the results depend on the processing

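The 6 libraries were left unassigned, so no replicate error of a tumor group is given, and rare gates rest on few UMIs. No paired analysis was possible because the barcode endings carry no replicate number of the sample labels and the results come from no test. Of the 10 genes, the 4 counted as higher with Ccl3 kept their direction in every alternative run. With Il1b the main run counted 0 of the 10, so no such check was possible. The direction of the pathway genes was not checked. Among ratios of the 10 genes that were not counted, 5 near 1 crossed 1. With Ccl3 these were Icam1 (0.965 to 1.07) and Nfkbiz (0.95 to 1.16). With Il1b they were Nfkbiz (0.95 to 1.07), Bcl2a1d (0.954 to 1.28) and Bcl2a1a (0.902 to 2.34). Of 162 recomputed counts of genes, 137 stayed within 1.5 times their value. With Ccl3, the count of higher genes among the 10 was 4 to 4 without any 1 library and 2 in the 25% of cells with most immediate early UMIs, and over 17 alternatives the Cd83 ratio stayed above 2 (2.19 to 2.98), while that of Tnf was 1.82 to 2.85 and at least 2 in 14. The 7 higher pathway genes became 12 with no minimum level (6 to 7 without any 1 library). With Il1b, the count of 0 became 3 when at least 2 Il1b UMIs were required and 3 at a ratio of 1.5. Its 2 higher pathway genes became 1 by the median over libraries and in the 25% with fewest immediate early UMIs, 5 with at least 2 Il1b UMIs, and 6 with no minimum level or at a ratio of 1.5. In NK-like cells the count of 1 higher gene became 2 with a mitochondrial limit of 10%, by the median over libraries, with 1 more marker, in cells of at least 1000 UMIs and at a ratio of 1.5, and 1 to 2 without any 1 library. In monocyte-like cells the 2 higher genes became 1 with no upper limit of genes, with 1 more marker and with a minimum of 50 CPM (1 to 2 without any 1 library), and the 3 lower genes became 5 at a ratio of 1.5 (2 to 4 without any 1 library). The cause of these changes was not tested. A comparison in cells with no immediate early UMI could not be made, since only 24 of 27691 cells had none.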

Other observations

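The 4728 barcodes that met no gate were shallow, with a median of 798 UMIs, and held more Cd83, Bcl2a1b and Gadd45b on the CPM scale than microglia-like cells. Cd83 was at 215 CPM there, with libraries of 178 through 220 to 267, all above the highest microglial library of 146 CPM. Bcl2a1b was at 218 CPM (180.3 through 220.3 to 241) and Gadd45b at 62.4 CPM (37.6 through 53.3 to 91.2), likewise above every microglial library. Tnf was lower, at 178 CPM (105 through 186 to 202), and Nfkbiz was at 572 CPM (432 through 605 to 646), both below every microglial library. Nfkbia did not differ beyond the libraries, at 1880.1 CPM (1632 through 1832 to 2183). How many of all genes lay apart by library in these barcodes was not counted. The summed microglial markers were at 6313 CPM in these barcodes and 13696 CPM in microglia-like cells. Markers of other types were higher, with the granulocyte list at 5166 against 7.41 CPM and the choroid plexus list at 3018 against 55.8 CPM. The NK list stood at 1239 against 27.0 CPM, the MHC class II list at 2192 against 213 CPM and the Lpl list at 484 against 151 CPM. The part of these lists in the differences was not tested.

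Barcodes with microglial markers that the quality limits removed also carried the 10 transcripts. In 881 barcodes with over 2500 genes Tnf was at 356 CPM and Nfkbia at 2209 CPM. In 436 barcodes at or over the mitochondrial limit Tnf was at 426 CPM and Nfkbiz at 532 CPM, against 292 and 939 CPM in the microglia-like cells that were kept.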
